A study of Mus musculus with 20 samples.

Results

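*Skap2*, *Arhgap9* and *Lrmp* are genes best known from blood cells, and they were examined here in left ventricular RNA of control and double knockout mice together with *Skap1*, the closest relative of *Skap2*. Members were found by gene symbol, as every probe annotated to 1 of the 4 genes, which gave 7 of the 45281 probes on the arrays and 4 of 19057 named genes. *Skap2*, *Arhgap9* and *Lrmp* had been chosen by their measured values, since their intensities were higher in knockout than in control hearts. Their genotype differences are therefore given as a description without a test. *Ptprc*, which encodes the leukocyte surface phosphatase CD45 and is represented by 4 probes, was read on the same arrays for comparison.

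Total RNA of 20 male mice was hybridised to Illumina bead chips. Of these mice, 4 CTL and 4 DKO had sham surgery, and 6 CTL and 6 DKO had TAC. CTL mice carried floxed alleles of both *Dnmt3a* and *Dnmt3b*, the *de novo* DNA methyltransferases, and no Cre recombinase. DKO mice carried the same floxed alleles together with Cre driven by the atrial myosin light chain promoter (*Myl7*, MLCCre), so that exons of the catalytic domains were removed in cardiomyocytes. TAC, transverse aortic constriction, is a ligature around the aorta that puts the left ventricle under pressure load. Surgery was performed at 10 to 12 weeks of age and tissue was taken 4 weeks later, at 14 to 16 weeks. All groups carried the floxed alleles, so the presence of Cre and the loss of the enzymes cannot be told apart. The paper reports incomplete recombination in sorted cardiomyocyte nuclei and gives none for non-myocytes. By design non-myocytes of DKO hearts should keep both genes, which was not checked here. The RNA comes from whole ventricular tissue.

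SKAP2 is an adaptor protein that links Src family kinases to integrin activation and the actin cytoskeleton, and it is studied mainly in macrophages, neutrophils and platelets. SKAP1 has the related role in T cells. ARHGAP9 is a GTPase activating protein of haematopoietic cells, and LRMP, also named IRAG2 or JAW1, is a membrane protein of the endoplasmic reticulum of lymphoid cells that binds inositol trisphosphate receptors.

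The promoter of *Skap2* is shown because the enzymes lost in DKO cardiomyocytes methylate cytosines in CG dinucleotides, which are in capitals. It is the stretch of 250 bases before the annotated start of the gene, on the minus strand at chr6:52012550-52012799 (GRCm38.p6, sequence from RefSeq).
*Skap2*: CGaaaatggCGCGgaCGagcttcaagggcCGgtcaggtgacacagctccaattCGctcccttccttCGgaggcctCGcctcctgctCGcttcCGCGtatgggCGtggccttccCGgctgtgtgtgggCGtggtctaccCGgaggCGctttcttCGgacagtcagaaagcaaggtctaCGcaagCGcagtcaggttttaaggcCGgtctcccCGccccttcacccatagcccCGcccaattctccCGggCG
This stretch held 24 CG dinucleotides and had a GC content of 64.0%. The median over 32851 mouse promoters of the same length was 6 CG dinucleotides, and 12.0% held as many as *Skap2*. The CG dinucleotide is its own reverse complement, so the count is the same on both strands. Of the 4 members, 1 was matched in the promoter table. *Skap1*, *Arhgap9* and *Lrmp* are named only. DNA methylation of the stretch was not analysed here, and the count is a description of the letters.

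Arrays of the same group correlated closely, with median correlations of log2 intensities between 0.982 and 0.993. The lowest belonged to sham CTL replicate 4. Heart tissue was recognisable by its markers, since all 7 measured cardiomyocyte genes lay well above background. As a mark of background, 1287 probes of olfactory receptor genes were used, whose mean intensities had a 5th percentile of 44.0 and a 95th percentile of 58.0. The 3 *Dnmt3a* probes had mean intensities of 41.6 to 48.2 and lay within or under that range, so they could not check the genotype labels. Of the *Dnmt3b* probes 1 lay above it with a mean of 107, where DKO and CTL differed by a log2 value of -0.15 in sham hearts (95% interval -0.32 to 0.02) and 0.06 after TAC (-0.08 to 0.20). The positions of these probes relative to the deleted exons are not known here. Intensities are not corrected for probe or transcript, so levels of different genes were not compared with each other. The p-values measure the spread between mice within this experiment, and precision is limited by the number of arrays.

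*Skap2* was the brightest member, with a mean intensity above 92.5% of all probes. In sham CTL hearts the 4 arrays read 278, 312, 313 and 378, and in sham DKO hearts they read 602, 644, 646 and 643. After TAC, the 6 CTL arrays ranged from 330 to 568 with a median of 402, and the 6 DKO arrays from 637 to 742 with a median of 672. Every DKO array lay above every CTL array in both conditions, and a single TAC CTL array, replicate 4 with 568, stood near the DKO range. The sham CTL mean was 320 ± 41.7 and the sham DKO mean 634 ± 21.5 (SD over 4 arrays). The TAC CTL mean was 418 ± 79.6 and the TAC DKO mean 682 ± 36.9 (SD over 6 arrays). DKO exceeded CTL by a log2 difference of 0.99 in sham hearts (standard error 0.11, 95% interval 0.76 to 1.22), which is a fold of 1.99. After TAC the log2 difference was 0.72 (standard error 0.09, interval 0.54 to 0.91), a fold of 1.65. In bulk tissue a change in the number of cells of a type and a change in RNA per cell cannot be told apart.

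*Arhgap9*, the GTPase activating protein, had a mean intensity above 81.2% of all probes. The 4 sham CTL arrays read 64.5, 76.0, 83.1 and 96.7, and the 4 sham DKO arrays read 148, 186, 140 and 158. After TAC, CTL arrays ranged from 84.2 to 119 (median 99.2) and DKO arrays from 167 to 319 (median 258). The genotypes did not overlap in either condition, and the lowest sham CTL arrays approached the background range. Means were 80.1 ± 13.5 and 158 ± 20.04 for the sham CTL and sham DKO groups (SD, n = 4 each). The corresponding TAC means were 100.3 ± 13.9 and 253 ± 49.8 (SD, n = 6 each). The log2 difference between DKO and CTL was 0.99 in sham hearts (standard error 0.15, 95% interval 0.67 to 1.30) and 1.32 after TAC (standard error 0.12, interval 1.06 to 1.58).

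*Lrmp*, the endoplasmic reticulum protein, was measured by 2 probes, which differed in size of the genotype difference. On probe 1 the sham CTL arrays read 93.6, 76.5, 83.6 and 79.7, and the sham DKO arrays read 243, 160, 199 and 169. After TAC, probe 1 ranged from 94.3 to 119 in CTL hearts (median 108) and from 209 to 413 in DKO hearts (median 253). DKO arrays were again all above CTL arrays, and TAC DKO replicate 1 with 413 was far above the next array at 265. The log2 difference on probe 1 was 1.20 in sham hearts (standard error 0.15, 95% interval 0.88 to 1.51) and 1.29 after TAC (standard error 0.12, interval 1.04 to 1.55). Without TAC DKO replicate 1, the lowest of all values with 1 array left out, it was 1.16 after TAC.

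On probe 2 of *Lrmp* the sham CTL arrays read 79.6, 67.6, 71.7 and 81.5, and the sham DKO arrays 114, 80.6, 98.2 and 91.9. These groups overlapped, since sham DKO replicate 2 with 80.6 lay under sham CTL replicate 4. After TAC the ranges were 85.0 to 103 in CTL (median 90.3) and 104 to 172 in DKO hearts (median 123) and did not overlap. The log2 difference was 0.35 in sham hearts (standard error 0.12, 95% interval 0.10 to 0.60) and 0.46 after TAC (standard error 0.10, interval 0.25 to 0.67), below a fold of 1.5 in both. Both probes are annotated to the same transcript and followed each other across arrays, with a correlation of 0.87 over 20 arrays and 0.74 once group means were removed.

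**Figure D1:**
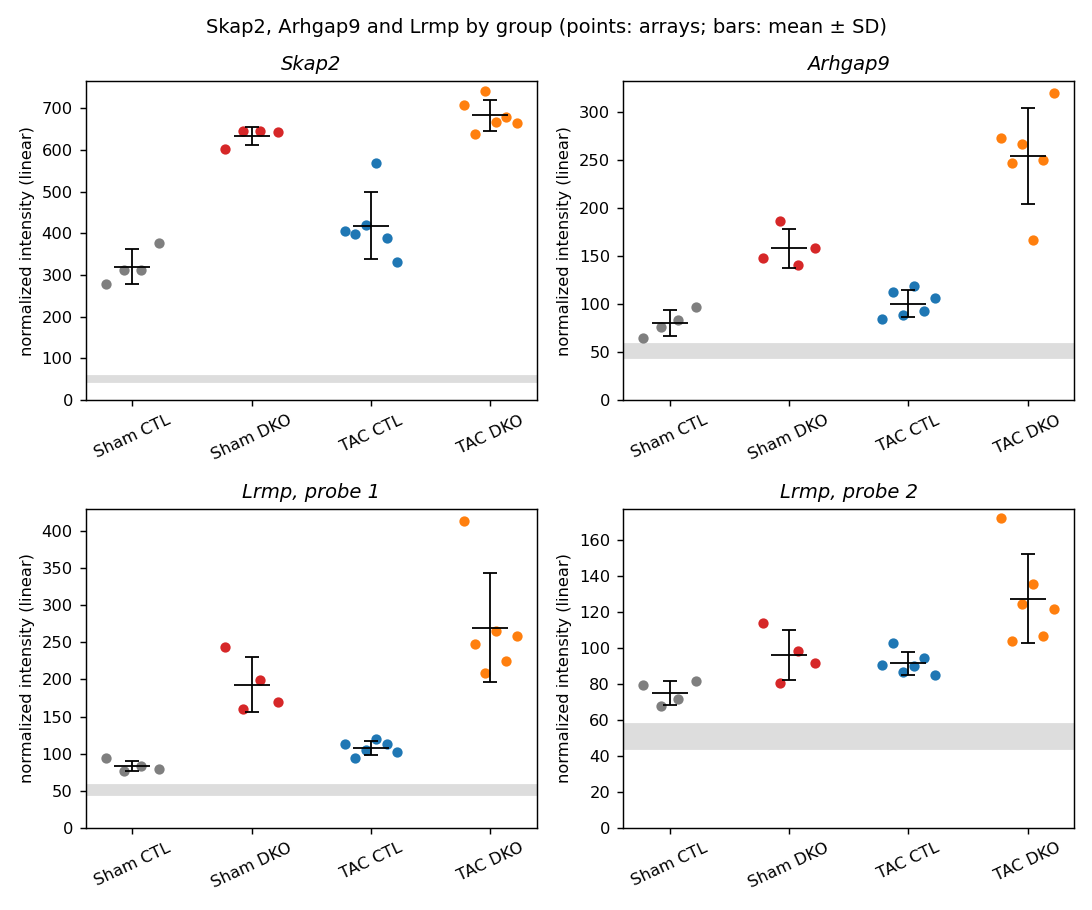
Normalized intensity (linear scale from 0) of *Skap2*, *Arhgap9* and both *Lrmp* probes in each group. Points are arrays, horizontal bars are means and error bars are SD (n = 4 sham and 6 TAC arrays per genotype), and the grey band spans the 5th to 95th percentile of olfactory receptor probes. *Skap2*, *Arhgap9* and *Lrmp* probe 1 show no overlap between CTL and DKO arrays, whereas *Lrmp* probe 2 overlaps in sham hearts.

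Calls here mean an adjusted p under 0.05 by limma and a fold over 1.5. Over all probes, 0.0883% were called higher and 0.0133% lower in sham hearts, and 0.128% were called higher and 0.0155% lower after TAC. The share of probes with every DKO array above every CTL array was 1.81% in sham hearts and 0.338% after TAC. The choice of *Skap2*, *Arhgap9* and *Lrmp* by this contrast placed 3 of the 7 member probes among those called higher in each condition, and nothing is read from that count.

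*Skap1*, the T cell relative of *Skap2*, was measured by probes at background level. Its 3 probes had mean intensities of 54.2, 52.7 and 48.0, all within the range of olfactory receptor probes. Probe 1 read between 49.4 and 53.8 on the sham arrays and between 50.3 and 62.3 on the TAC arrays, with overlapping genotypes. DKO minus CTL log2 differences of the 3 probes were -0.03, 0.16 and 0.03 in sham hearts and -0.10, 0.13 and -0.03 after TAC, and none was called by limma (lowest adjusted p = 0.556). Of the intervals, the widest reach was from -0.22 to 0.32. Because the probes sit at background, a low level of *Skap1* mRNA or a change in it may not be visible on these arrays.

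*Ptprc* was also at background. Mean intensities of its 4 probes were 48.6, 48.0, 46.6 and 43.7, and none exceeded the 95th percentile of olfactory receptor probes. Probe 1, the brightest, read 53.5, 54.1, 49.2 and 49.0 in sham CTL hearts and 53.3, 51.1, 51.6 and 55.2 in sham DKO hearts. After TAC it ranged from 43.6 to 50.5 (median 46.0) in CTL and from 43.9 to 49.8 (median 46.0) in DKO hearts, so that the genotypes overlapped in both conditions. The log2 difference of probe 1 between DKO and CTL was 0.04 in sham hearts (interval -0.09 to 0.17, adjusted p = 0.994 by limma) and 0.00 after TAC (interval -0.11 to 0.10, adjusted p = 0.993). Probe 2 stood out in sham hearts, where all DKO arrays (49.4 to 56.5) lay above all CTL arrays (39.2 to 49.0), with a log2 difference of 0.22 (interval 0.06 to 0.39, unadjusted p = 0.00923, adjusted p = 0.733 by limma). After TAC the same probe differed by -0.06 (interval -0.19 to 0.07). Probes 3 and 4 differed by 0.14 and 0.02 in sham hearts and by 0.02 and -0.08 after TAC, and no *Ptprc* probe was called.

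**Figure D2:**
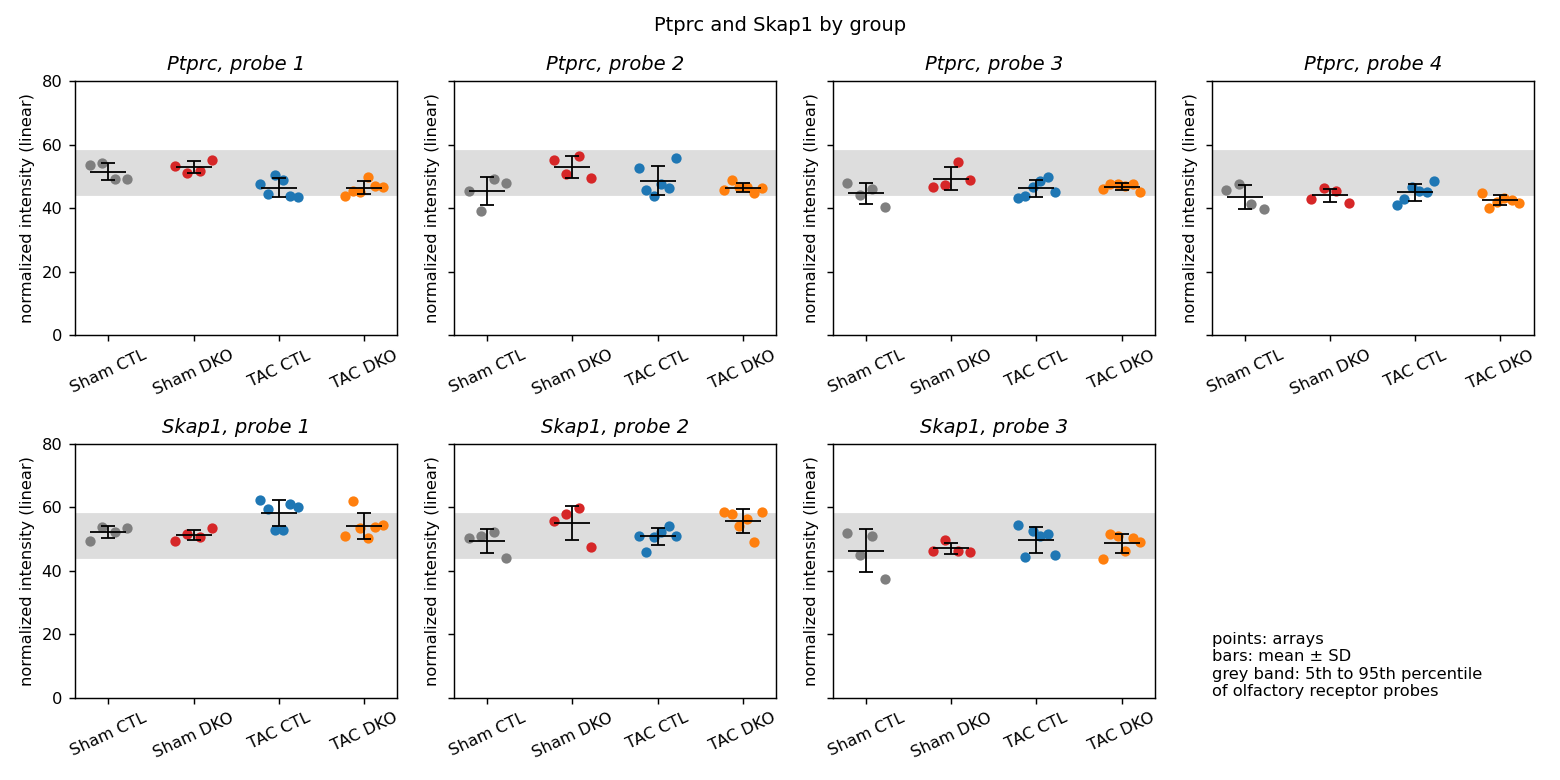
Normalized intensity (linear scale from 0) of the 4 *Ptprc* and 3 *Skap1* probes by group. Points are arrays, bars are mean ± SD (n = 4 sham and 6 TAC arrays per genotype), and the grey band spans the 5th to 95th percentile of olfactory receptor probes. Almost all points fall in or near the band, and group means lie between 42.4 and 58.1.

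Since *Ptprc* was at background, a list of 16 pan-leukocyte genes that includes it was read as well, of which 11 lay above the olfactory receptor range. None of the 16 was called between the genotypes by limma in sham or TAC hearts, and 0 and 2 had an unadjusted p under 0.05. Such a p was held by 5.55% and 8.99% of all probes. Calls were rare over all probes, with 0.0883% and 0.128% higher and 0.0133% and 0.0155% lower, so 0 calls are given as a description. The median log2 difference over the list was 0.03 in sham hearts and 0.00 after TAC. Among the 11 genes above background it ran from -0.03 to 0.24 in sham hearts and from -0.24 to 0.14 after TAC, and their 95% intervals reached no further than 0.62 and 0.37 upwards. The summed intensity of the list was 2349 to 2552 on sham CTL arrays, 2476 to 2738 on sham DKO arrays, 2625 to 4542 on TAC CTL arrays and 2822 to 3836 on TAC DKO arrays. The genotypes overlapped in both conditions, and the highest sum was that of a CTL array.

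Lists of macrophage and monocyte, T and NK cell, B cell, neutrophil, and mast cell and basophil genes held 0 called genes in the genotype comparisons by limma. Of 17 macrophage and monocyte genes 16 lay above background, with a median log2 difference of 0.10 in sham hearts and -0.02 after TAC. Of the other lists, 3 of 13 T and NK cell, 1 of 9 B cell, 4 of 9 neutrophil and 4 of 10 mast cell and basophil genes lay above background, so these cell types were read through few genes. Over 12 lists with 145 distinct genes, which also covered heart cell types and the partners of the members, 0 genes were called in either genotype comparison, while 7 and 18 had an unadjusted p under 0.05. Over all probes, 5.55% had such a p in sham hearts and 8.99% after TAC, while 0.0883% and 0.128% were called higher and 0.0133% and 0.0155% lower.

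**Figure D3:**
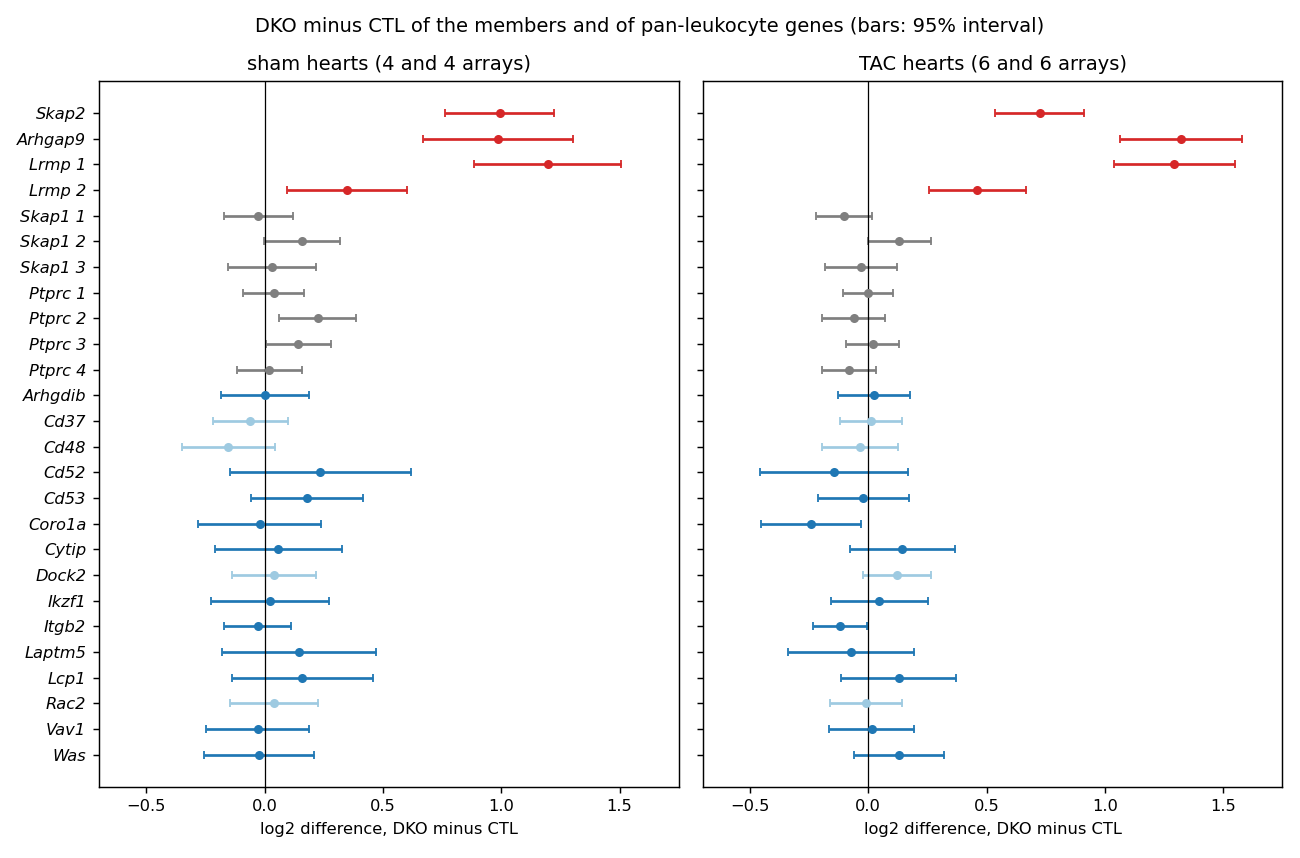
DKO minus CTL log2 differences of normalized intensity in sham (left, n = 4 and 4 arrays) and TAC hearts (right, n = 6 and 6), with 95% intervals. Red marks *Skap2*, *Arhgap9* and *Lrmp* probes 1 and 2, grey marks *Skap1* and *Ptprc* probes, dark blue marks pan-leukocyte genes above the olfactory receptor range and light blue those within it. The red points lie between 0.35 and 1.32, and the blue ones between -0.24 and 0.24.

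When the *Ptprc* value of each array entered the model as a covariate, the DKO minus CTL log2 difference was, in sham and in TAC hearts, 0.98 and 0.72 for *Skap2*, 1.05 and 1.32 for *Arhgap9*, and 1.20 and 1.29 for *Lrmp* probe 1. These values are a description of the difference by which the genes had been chosen. *Ptprc* itself was at background, so they do not measure the part of leukocyte number, which was not tested. With the mean of the pan-leukocyte list in its place, each gene scaled to the same SD over the arrays, they were 0.98 and 0.72, 0.99 and 1.32, and 1.18 and 1.29. With the mean log2 level of the 11 genes above background, not scaled to the same SD, they were 0.94 and 0.73, 1.005 and 1.32, and 1.16 and 1.30. That choice of genes was made after the values had been seen. Whether a leukocyte type without detectable markers on these arrays contributes was not tested.

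Within TAC CTL and within TAC DKO hearts, the 3 genes were set against *Ptprc* and against the pan-leukocyte genes, over 6 arrays each. *Ptprc* lay at background, so its values may not follow leukocyte level, and nothing about leukocyte number is read from its relations. Against *Ptprc*, none of 6 relations passed adjustment in exact permutation tests (two-sided, lowest adjusted p = 0.429 for Pearson's r and 0.1 for Spearman's rank correlation). *Skap2* in TAC CTL hearts had the highest positive values there (r = 0.65, exact p = 0.143, rank correlation = 0.94, exact p = 0.0167). Without the 2 arrays farthest from the median of *Ptprc*, r was 0.60. The r largest in size was negative, for *Arhgap9* in TAC DKO hearts (r = -0.72, exact permutation p = 0.126, rank correlation = -0.54). It was 0.26 without the 2 farthest arrays. For *Arhgap9* in TAC CTL hearts r was -0.25. Against the mean of the 11 pan-leukocyte genes, *Skap2* in TAC CTL hearts gave r = 0.95 (exact permutation p = 0.0167, adjusted p = 0.1) and rank correlation = 0.71 (exact p = 0.136, adjusted p = 0.408). That relation rests on few arrays, since r was 0.10 without the 2 arrays farthest from the median. Replicate 4 of TAC CTL had both the highest leukocyte level and the highest *Skap2* of that group. The same array was also highest of its group for *Arhgap9* (119) and *Lrmp* probe 1 (119), while *Lrmp* probe 2 was highest on replicate 2 (103). *Lrmp* probe 1 in TAC CTL hearts gave r = 0.80 (exact permutation p = 0.0542, adjusted p = 0.162) and rank correlation = 0.94 (exact p = 0.0167, adjusted p = 0.1), with r = 0.91 without the 2 farthest arrays. In TAC DKO hearts r was -0.12 for *Skap2*, -0.56 for *Arhgap9* and 0.45 for *Lrmp* probe 1, with adjusted exact permutation p from 0.561 to 0.815. For *Arhgap9* in TAC CTL hearts r was 0.20, and -0.92 without the 2 farthest arrays. None of these 6 relations with the pan-leukocyte genes passed adjustment.

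**Figure D4:**
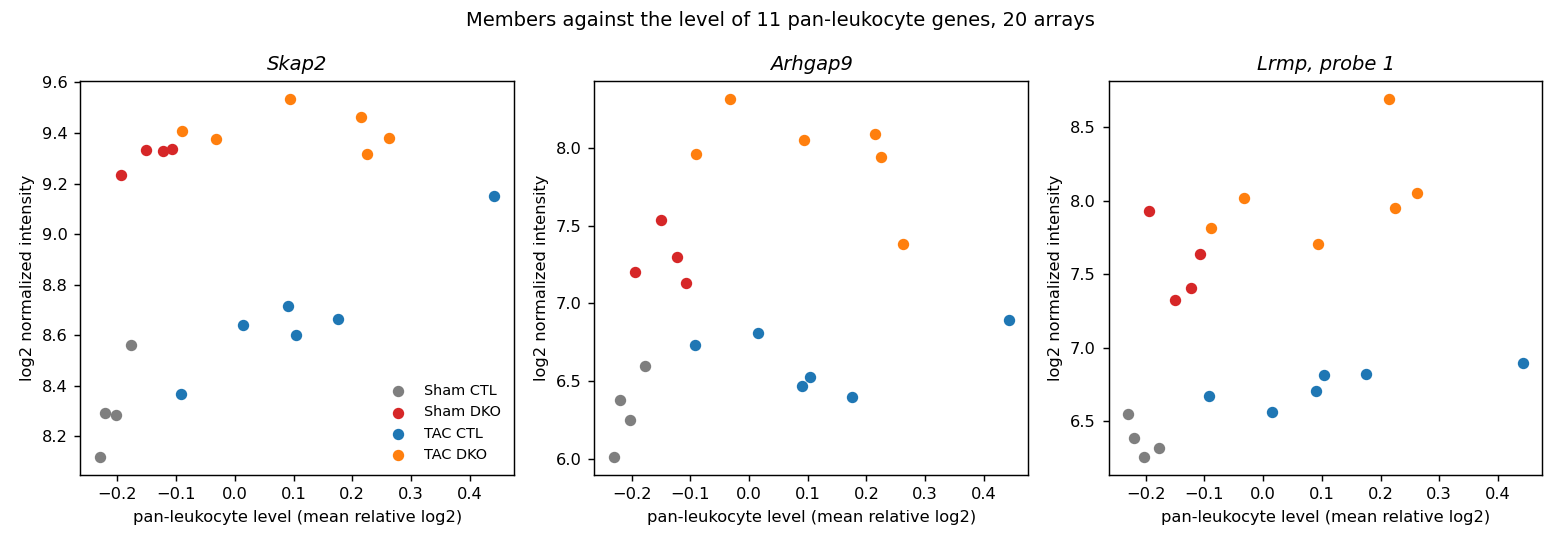
Log2 normalized intensity of *Skap2*, *Arhgap9* and *Lrmp* probe 1 on each of 20 arrays against the mean relative log2 level of 11 pan-leukocyte genes on the same array. Colours mark the 4 groups. DKO arrays (red, orange) lie above CTL arrays (grey, blue) of the same surgery in each panel. The TAC CTL array with the highest leukocyte level has the highest value of its group in each panel, with an intensity of 568 for *Skap2*.

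The genes had not been chosen by a comparison of surgeries, but the choice used values of the same arrays. Their surgery tests are therefore not fully independent of it. *Arhgap9* rose after TAC in DKO hearts, from 158 to 253, by a log2 difference of 0.66 (standard error 0.14, fold 1.58, adjusted p = 0.000811 by limma). Among all probes, 2.46% were called higher and 4.27% lower in that comparison, and *Arhgap9* was 1 of 7 member probes called. A single TAC DKO array, replicate 4 with 167, lay within the sham DKO range of 140 to 186. This call depended on scaling. The authors had normalized sham and TAC arrays as separate sets, so surgery and set cannot be told apart. On the values as deposited, which were higher on TAC arrays by 0.29 (log2, median over probes), the difference was 0.53 (adjusted p = 0.00179 by limma, below a fold of 1.5), and with each array centred on its median it was 0.23 (adjusted p = 0.235). In the same comparison the pan-leukocyte list had a median log2 difference of 0.25, which was 0.06 with median centring, and 0 of its genes were called higher and 1 lower. The 4 *Ptprc* probes, all at background, differed by -0.19 to -0.05 and were not called. For probe 1 (-0.19, adjusted p = 0.0155 by limma) the sign turned in 1 alternative, to 0.13. Of 7 cardiomyocyte markers 4 were called lower, with a median of -0.63. The part of these lists in the rise of *Arhgap9* was not tested.

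No other member probe passed both criteria for surgery. In CTL hearts, where 1.76% of probes were called higher and 3.4% lower, 0 of 7 member probes were called by limma. The log2 differences were 0.38 for *Skap2* (interval 0.17 to 0.59, adjusted p = 0.00883), 0.33 for *Arhgap9* (0.04 to 0.62, adjusted p = 0.0995) and 0.37 for *Lrmp* probe 1 (0.08 to 0.65, adjusted p = 0.0588). In the same hearts the pan-leukocyte list had a median log2 difference of 0.28, with *Cd52* (0.96) and *Laptm5* (0.67) called higher and *Cd53* (-0.72) lower, of which only *Cd53* was called with median centring. The *Ptprc* probes differed there by -0.15 (probe 1) to 0.10 (probe 2) and were not called. For probe 1 the sign turned in 1 alternative, to 0.18. Of 7 cardiomyocyte markers 3 were called lower there, with a median of -0.53. *Lrmp* probe 2 differed by 0.29 (0.06 to 0.52, adjusted p = 0.0695). In DKO hearts, *Skap2* differed by 0.11 (-0.10 to 0.32, adjusted p = 0.48), *Lrmp* probe 1 by 0.47 (0.18 to 0.75, adjusted p = 0.0134, fold 1.38) and probe 2 by 0.40 (0.17 to 0.63, adjusted p = 0.00893, fold 1.32). Median centring turned the sign of *Skap2*, to -0.11 in CTL and -0.38 in DKO hearts, and values as deposited gave 0.20 and -0.08. The *Lrmp* differences also depended on scaling. Median centring gave 0.10 in CTL and 0.02 in DKO hearts on probe 1, and 0.07 and 0.08 on probe 2. Values as deposited gave 0.40 and 0.32 on probe 1, and 0.37 and 0.39 on probe 2. For *Arhgap9* in CTL hearts these scalings gave 0.09 and 0.39. *Skap1* differed by 0.04 to 0.15 in CTL and by 0.02 to 0.08 in DKO hearts. On values as deposited its probes differed by 0.37 to 0.45 and by 0.31 to 0.39, and none was called. Since these probes lie at background, the *Lrmp* differences on that scaling were of a size also seen at background.

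Both *Lrmp* probes had every TAC CTL array above every sham CTL array, which held for 8.37% of all probes. In DKO hearts, where it held for 11.1% of probes, none of the *Skap2*, *Arhgap9* and *Lrmp* probes separated in this way. The genotype difference itself did not pass a test of change with surgery for any member. The interaction, the genotype difference after TAC minus that in sham hearts, was -0.27 for *Skap2* (interval -0.57 to 0.03, adjusted p = 0.939 by limma), 0.34 for *Arhgap9* (-0.07 to 0.74, adjusted p = 0.939) and 0.10 for *Lrmp* probe 1 (-0.31 to 0.50, adjusted p = 0.971), the last being -0.08 on values as deposited and with median centring. Over all probes 0.00221% were called for the interaction in either direction. The intervals of all 3 genes thus include 0 and also values as large as -0.57 for *Skap2* and 0.74 for *Arhgap9*. On values as deposited and with median centring the interaction was 0.15 for *Arhgap9* and -0.28 for *Skap2*.

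Partners of the members were read from lists of known associates. Of 24 measured partners of the SKAP adaptors, which include Src family kinases, integrins and the RAP1 module, 0 were called between the genotypes by limma, with 2 in sham and 4 in TAC hearts at an unadjusted p under 0.05 and median log2 differences of -0.01 and -0.04. The shares of all probes with such a p were 5.55% and 8.99%. Those called higher were 0.0883% and 0.128%, and those called lower 0.0133% and 0.0155%, so nothing is read from 0 calls. *Evl*, an actin regulator of the Ena/VASP family, fell after TAC by 1.01 in CTL and by 1.10 in DKO hearts on the log2 scale (adjusted p = 4.33e-08 and 7.07e-09 by limma). It was the 1 of 24 partners called in each genotype. Of all probes, 3.4% were called lower in CTL and 4.27% in DKO hearts, and 1.76% and 2.46% were called higher. Nothing about the partners as a list is read from 1 call. The call of *Evl* held on the values as deposited and with median centring.

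Of 14 measured genes of the LRMP list, which holds its relative *Mrvi1* (*Irag1*), inositol trisphosphate receptors and nuclear envelope proteins, 0 were called between the genotypes, with 2 and 5 at an unadjusted p under 0.05 by limma and median differences of -0.03 and 0.07. Among all probes such a p was found for 5.55% in sham and 8.99% in TAC hearts. Only 0.0883% and 0.128% of them were called higher, and 0.0133% and 0.0155% lower, so nothing is read from 0 calls. After TAC 4 of the 14 rose in CTL and 6 in DKO hearts, and 0 fell, against 1.76% and 2.46% of all probes called higher and 3.4% and 4.27% called lower. *Plcg2*, a phospholipase that produces inositol trisphosphate, rose by 0.99 in CTL and 0.88 in DKO hearts, and *Prkg1*, a cGMP-dependent kinase, by 0.96 and 0.67. The nesprin genes *Syne1* and *Syne2*, whose products span the nuclear envelope, rose by 0.80 and 0.75 in CTL and by 1.03 and 1.12 in DKO hearts. *Mrvi1* rose by 0.83 in DKO hearts (adjusted p = 5.42e-06 by limma) and was not called in CTL hearts. These counts depended on scaling. With each array centred on its median, 0 genes of the list were called higher and 1 lower in CTL hearts, and 2 (*Syne1* and *Syne2*) higher and 1 lower in DKO hearts. On the values as deposited 4 and 5 were higher. In the same comparisons 3 and 4 of the 7 cardiomyocyte markers were called lower, and their part in these counts was not tested.

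Genes beside the members on the chromosome were read for the same genotype difference. The 4 nearest measured genes on each side of each member in the gene order of GRCm38.p6 gave 32 genes, of which 22 lay above background. None was called by limma between the genotypes, with 3 in sham and 5 in TAC hearts at an unadjusted p under 0.05, against 5.55% and 8.99% of all probes. The shares of all probes called higher were 0.0883% and 0.128%, and of those called lower 0.0133% and 0.0155%. Log2 differences of the 32 genes ran from -0.21 to 0.21 in sham hearts and from -0.29 to 0.22 after TAC. *Skap2* lies next to the *Hoxa* genes, which encode positional transcription factors, and *Skap1* next to the *Hoxb* genes. The 8 neighbours of *Skap2* ranged from -0.07 to 0.19 in sham hearts and from 0.03 to 0.21 after TAC, against 0.99 and 0.72 for *Skap2*.

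**Figure D5:**
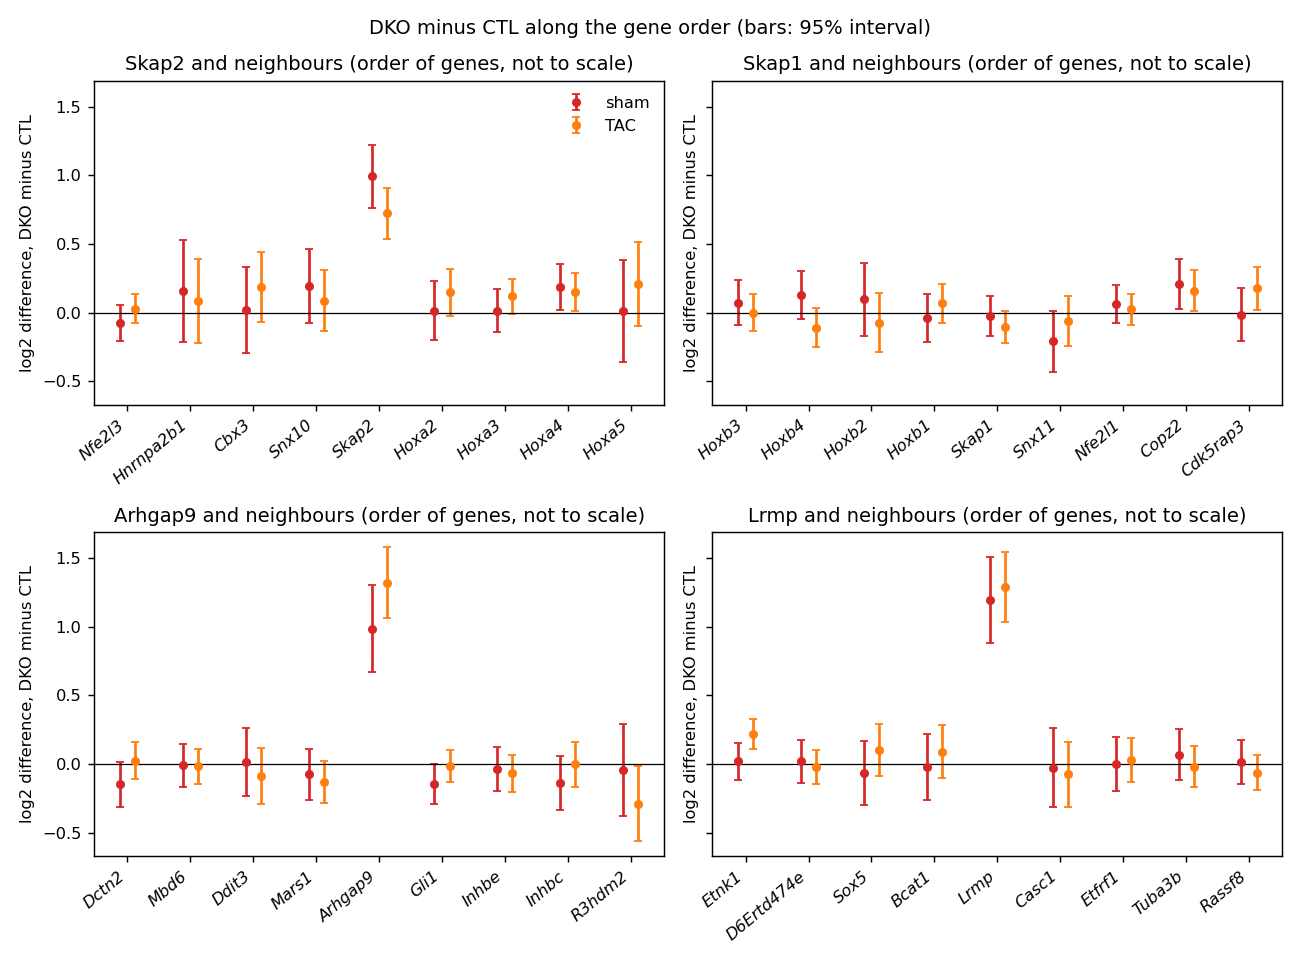
DKO minus CTL log2 differences of normalized intensity with 95% intervals for each member (probe 1, centre of each panel) and the 4 nearest measured genes on either side, in gene order and not to distance. Red points are sham and orange points TAC hearts. *Skap2*, *Arhgap9* and *Lrmp* stand at 0.72 to 1.32, whereas their neighbours and *Skap1* with its neighbours lie between -0.29 and 0.22.

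The genes whose pattern over the 20 arrays was most like that of the members by Pearson's r are given as a description, since all arrays share the split by genotype. For *Skap2* they were *Aldh1l1* (0.94), *Slc9a3* (0.92), *Arhgef11* (0.92), *Arhgap9* (0.89) and *Fgfrl1* (0.89). For *Arhgap9* they were *Pigz* (0.96), *Aldh1l1* (0.93), *Krt8* (0.92), *Slc17a7* (0.92) and *Gstm6* (0.91). For *Lrmp* probe 1 they were *Slc9a3* (0.94), *Aldh1l1* (0.92), *Alox5* (0.92), *Igsf23* (0.91) and *Rgs6* (0.90). *Aldh1l1*, an enzyme of folate metabolism, is on all 3 lists, and its own log2 difference between DKO and CTL was 1.87 in sham hearts and 2.05 after TAC. With group means removed, its correlation was 0.72 with *Skap2*, 0.52 with *Arhgap9* and -0.004 with *Lrmp* probe 1. Among the members, correlations over 20 arrays were 0.89 for *Skap2* with *Arhgap9*, 0.88 for *Skap2* with *Lrmp* probe 1 and 0.88 for *Arhgap9* with *Lrmp* probe 1. With group means removed they were 0.38, 0.03 and -0.15, so that the likeness lay mainly between the groups.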

How the data were processed

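Arrays of 20 mouse ventricles were used, 1 per mouse, grouped by their labels. Per the labels, the authors processed the bead chips in GenomeStudio 2010.3, and the deposited values are linear intensities, with background correction not given in the sources used here. Sorted values were equal to within 0.2% for at least 97.57% of probes among sham and 99.91% among TAC arrays, and for at most 0.413% between them, so the deposited intensities had been quantile normalized as 2 sets. Symbols were updated through gene identifiers for 34807 probes. 10378 probes name no gene and 18 name several.

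Here intensities were log2 transformed with no added constant and quantile normalized over all 20 arrays. With limma 3.58.1 (R 4.3.3), the 45281 probes were modelled together by 4 group means, which left 16 residual degrees of freedom beside 6.64 prior ones. Differences are log2, and means and SD are those of normalized linear intensities. Calls required a fold over 1.5 and p under 0.05 after Benjamini-Hochberg adjustment over all probes. Lists used the brightest probe per gene, and the members of 1 list are not reported here. The named genes were all probes of the members and *Ptprc*, up to 4 called genes per list and comparison by size of change, called neighbours, and the 5 genes most like each member. *Laptm5*, *Cd52* and *Cd53* come under this rule, and uncalled neighbours are named in the plot of neighbours only, as a display of all 32. The members, lists and tests were chosen with earlier results of these data known, and the level of olfactory receptor probes after values had been seen. The fit was tested on simulated data. The alternatives changed the scaling, an added constant, a filter on dim probes, the arrays fitted, a replicate block, the variance model and covariates.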

Additional observations from a re-analysis of the deposited data

Results flagged for a closer look

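Of 44 groups of arrays tested over the member and *Ptprc* probes, 4 held an array far from the others of its group, by the gap to the nearest array relative to the range of the group. Chance gives about 1 in 20 groups. *Lrmp* probe 1 was highest in TAC DKO replicate 1 with 413, against 265 for the next array, and probe 2 was also highest on that array with 172. *Skap2* was lowest among sham DKO arrays in replicate 1 with 602, against 643 for the next, while that array lay far above all sham CTL arrays. *Skap1* probe 1 was highest in TAC DKO replicate 2 with 62.0, against 54.3, and *Skap1* probe 3 was highest in sham DKO replicate 2 with 49.7, against 46.2, both near background.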

How the results depend on the processing

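Since *Skap2*, *Arhgap9* and *Lrmp* had been chosen by their genotype differences on these arrays, the values under the alternatives are a description only. The differences, on probe 1 for *Lrmp*, kept their direction under all 30 alternatives run for each. They ranged over 0.93 to 1.08 in sham and 0.66 to 0.82 in TAC hearts for *Skap2*, 0.86 to 1.11 and 1.20 to 1.44 for *Arhgap9*, and 1.06 to 1.32 and 1.16 to 1.36 for *Lrmp* probe 1. The rise of *Arhgap9* after TAC in DKO hearts was 0.53 on values as deposited and 0.23 with median centring, and no longer called in either. With each array left out in turn it was 0.59 to 0.78 and called each time. Whether replicate numbers pair the arrays is not known here, and the main model did not use them. Correlations of same-numbered deviations were 0.02 to 0.37 in sham and -0.31 to 0.59 in TAC arrays. Of these pairs, 3 of 4 sham and 4 of 6 TAC pairs correlated best with their own number. In the fit with the replicate number as a block the rise of *Arhgap9* in DKO hearts was 0.62 (adjusted p = 0.00284 by limma). That block joined sham and TAC arrays of the same number, whereas the correlations were taken within each surgery. In the replicate block fit 5 in place of 1 pan-leukocyte genes were called for surgery in DKO hearts, and the block changed no call of a member. That count was 2 without sham DKO replicate 1 or 4 or TAC DKO replicate 3 or 6, and 4 without TAC DKO replicate 5. Median centring moved the probes called for surgery from 798 higher and 1541 lower to 186 and 3848 in CTL hearts, and from 1116 and 1934 to 204 and 4166 in DKO hearts. The count of probes called lower in sham DKO hearts was 6, and from 1 to 9 with each array left out in turn, with 2, 1 and 3 without sham CTL replicate 3, sham DKO replicate 1 and sham DKO replicate 3. The count lower in TAC DKO hearts was 7, and 4 with TAC arrays fitted alone or with an intensity trend and robust fitting together. The SKAP partners called for surgery in CTL hearts were 2 in place of 1 without TAC CTL replicate 6 and on values as deposited, and in DKO hearts 3 with median centring. Of 2098 alternative values, 2065 kept their side of the threshold or stayed within the limits set. Values not called changed sign for *Skap2* after TAC in 1 alternative in CTL and 2 in DKO hearts, and for the interaction of *Lrmp* probe 1 in 3. The 1 probe called for the interaction was lower, and 0 were called lower when TAC CTL replicate 3, replicate 3 or 4 of sham DKO, or replicate 1 or 4 of sham CTL was dropped. The causes were not tested. Probes of *Ptprc* and *Skap1* lie at background, which limits what their differences show.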
